A study of Mus musculus with 8 samples.

Results

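NF-kB is the transcription factor that the HTLV-1 oncoprotein Tax is best known for activating, and 10 mouse genes that encode its subunits and its feedback inhibitors were followed here through the tumors of Tax transgenic mice. They are the subunits Nfkb1, Nfkb2, Rel and Relb, the cytoplasmic inhibitors Nfkbia and Nfkbie, the nuclear IkB proteins Nfkbiz and Bcl3, and the ubiquitin regulators Tnfaip3 and Birc3. Membership follows gene names, and each was read from the probe set annotated to it. Probe sets were matched for 9 of the 10 genes, out of 21789 probe sets that carry exactly 1 gene symbol, and Nfkb1 was not analysed here. RNA came from 2 populations of cells sorted from tail tumors, CD16/32HI and CD16/32LO. The TAX-LUC mice were IL-15+/+ or IL-15-/-, with 2 arrays in each of the 4 groups (Affymetrix Whole Transcript 1.0ST). Each genotype was represented by a mouse of 14 months (replicate 1) and a mouse of 12 months (replicate 2), and both populations of a mouse came from its tumor. All 4 mice carried the same pair of transgenes, Tax under the human granzyme B promoter and luciferase under the HTLV-1 LTR. Every mouse thus carries Tax, and the genotypes are compared within Tax tumors. Sex, read from a female-specific transcript described below, coincided with genotype, so the comparison is not one of IL-15 alone. The granzyme B promoter drives Tax in cytotoxic lymphocytes, and the knockout allele holds a PGK-Neo cassette in place of several Il15 exons. The question the arrays addressed was which transcripts of the malignant and of the infiltrating cells depend on IL-15.

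In resting cells NF-kB dimers are held in the cytoplasm by IkB proteins such as the product of Nfkbia. Signals from TNF, IL-1 and Toll-like receptors, or Tax itself through the IkB kinase complex, lead to the destruction of IkB and free the dimers to enter the nucleus. Several of the genes switched on there encode brakes on the same pathway, above all Nfkbia and Tnfaip3, whose transcripts are for that reason widely read as a record of NF-kB activity. In myeloid cells and lymphocytes of tumors the pathway is a main route to inflammatory cytokines and chemokines.

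Of the 9 measured members, 3 feedback genes had the largest differences between the tumors. In CD16/32HI cells Nfkbiz, Tnfaip3 and Nfkbia had 2.89-fold, 2.41-fold and 2.34-fold higher mean signals in IL-15-/- than in IL-15+/+ tumors, and for each gene the lower of the IL-15-/- values exceeded the higher of the IL-15+/+ values. The same separation, higher in IL-15-/- cells with no overlap, was found for 24.1% of all probe sets in CD16/32HI cells. The IL-15-/- side includes a mouse whose marker genes ran in the opposite order between the populations, as described below. Sex also coincided with genotype. None of the 3 feedback genes passed the test once adjusted over all probe sets. The subunits Rel and Relb, and the inhibitors Nfkbie and Bcl3, differed between the same arrays by no more than 1.17-fold. These genes did not separate by genotype in that direction in CD16/32LO cells.

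Promoter sequence is shown for the pair of these genes with an entry in the promoter table, Nfkbia and Tnfaip3, and for Birc3, which has none of the letters searched for and did not separate by genotype in CD16/32HI cells. Each line gives the 250 bases before the transcription start, 5′ to 3′ on the strand of the gene, from RefSeq on GRCm38.p6. They lie at chr12:55492648-55492897 for Nfkbia, at chr10:19015411-19015660 for Tnfaip3 and at chr9:7873171-7873420 for Birc3, all on the minus strand. Capitals mark matches to the kappa B letters.
Nfkbia: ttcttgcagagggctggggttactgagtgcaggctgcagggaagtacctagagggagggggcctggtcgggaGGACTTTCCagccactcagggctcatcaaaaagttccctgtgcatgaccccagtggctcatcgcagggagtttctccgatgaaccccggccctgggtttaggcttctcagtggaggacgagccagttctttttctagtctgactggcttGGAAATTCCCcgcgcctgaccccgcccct
Tnfaip3: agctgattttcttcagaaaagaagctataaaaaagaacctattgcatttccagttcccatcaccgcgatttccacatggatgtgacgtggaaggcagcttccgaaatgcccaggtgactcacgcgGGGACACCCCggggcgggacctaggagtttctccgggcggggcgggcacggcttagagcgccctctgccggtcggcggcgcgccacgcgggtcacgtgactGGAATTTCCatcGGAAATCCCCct
Birc3: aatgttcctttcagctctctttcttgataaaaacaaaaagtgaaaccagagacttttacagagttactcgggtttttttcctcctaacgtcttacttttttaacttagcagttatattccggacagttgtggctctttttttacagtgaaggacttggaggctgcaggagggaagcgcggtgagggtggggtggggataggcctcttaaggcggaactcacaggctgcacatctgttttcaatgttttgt
The letters searched on both strands were GGANTTTCC, of 9 bases, and the kappa B consensus of 10 bases, which overlaps it and is looser. In windows from 250 bases before to 50 bases after each start, either match was present in 11.8% of all 32851 RefSeq promoters (1.25% for the 9-base and 11.2% for the 10-base letters). Of the measured members 7 had a window, and 6 of these held a match, namely Nfkb2, Rel, Nfkbia, Nfkbie, Bcl3 and Tnfaip3. Some genes had several windows, and counted by window, as the 11.8% is, 8 of 10 held a match. Windows of Nfkb2 overlap and share a match. Nfkbia held the 9-base letters at 178 and 29 bases before its start, the nearer of which also matched the longer consensus. Tnfaip3 held the 9-base letters at 24 bases before its start and the longer consensus at 125 and 12 bases before it. Another Tnfaip3 window held no match. A match describes letters only, and Rel, Nfkbie and Bcl3, each with a match, differed little between genotypes in the arrays described below.

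All signals are log2 values from RMA, so that a difference of 1 is a doubling, and they compare arrays for 1 probe set but not one gene with another. Array medians lay between 5.62 and 5.93, the lowest in the 12-month IL-15+/+ mouse. The arrays fell into 3 sets by the exactly equal values that arrays normalized together share (11 to 106 a pair within sets, 0 between), 1 for the 14-month mice of both genotypes, 1 for the 12-month IL-15+/+ mouse and 1 for the 12-month IL-15-/- mouse. In replicate 2 genotype and set therefore cannot be told apart, and differences within replicate 1 are given beside the means. The Il15 probe set ranged from 5.18 to 6.88 in the 4 IL-15+/+ and from 5.22 to 6.54 in the 4 IL-15-/- arrays. It sums probes inside and outside the replaced exons and so does not check the genotype labels. The female-specific transcript Xist read 10.08 to 10.75 in the IL-15-/- and 3.92 to 4.64 in the IL-15+/+ arrays, so that sex and genotype cannot be told apart.

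The population labels needed a check against marker genes. Over 9 macrophage markers the mean signal was 10.61 and 10.27 in the CD16/32HI arrays of the IL-15+/+ mice and 10.92 in that of the 12-month IL-15-/- mouse, but 8.62 in that of the 14-month IL-15-/- mouse. The 8 mature neutrophil markers ran the other way, at 8.45, 8.10 and 8.02 in the first 3 of these arrays and 11.10 in the last. In CD16/32LO cells the same mouse stood apart again, with the neutrophil markers at 8.61 against 10.55, 11.00 and 10.87 in the other mice and the macrophage markers at 10.72 against 8.87, 8.62 and 8.75. The 14-month IL-15-/- mouse thus had the 2 populations in the opposite order, and its labels were kept as deposited while results are also given with that mouse left out. Whether its 2 arrays were exchanged cannot be told from the labels. An exchange would turn the sign of every difference between populations in this mouse, and the values it would give for the genes the results turn on stand beside them. The labels call CD16/32HI cells malignant, and the study describes this population as highly enriched in malignant large granular lymphocytes. Over 9 markers of NK cells and large granular lymphocytes, however, the mean was 5.71, 5.29, 4.85 and 4.93 in the CD16/32HI arrays (IL-15+/+ replicates 1 and 2, then IL-15-/- replicates 1 and 2). In the CD16/32LO arrays these markers averaged 7.14, 6.81, 5.02 and 5.25, higher than in the CD16/32HI array of the same mouse in each of the 4. The populations are therefore called by their sort gates here. In sorted bulk cells, fewer cells of a type and less RNA per cell cannot be told apart.

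**Figure D1:**
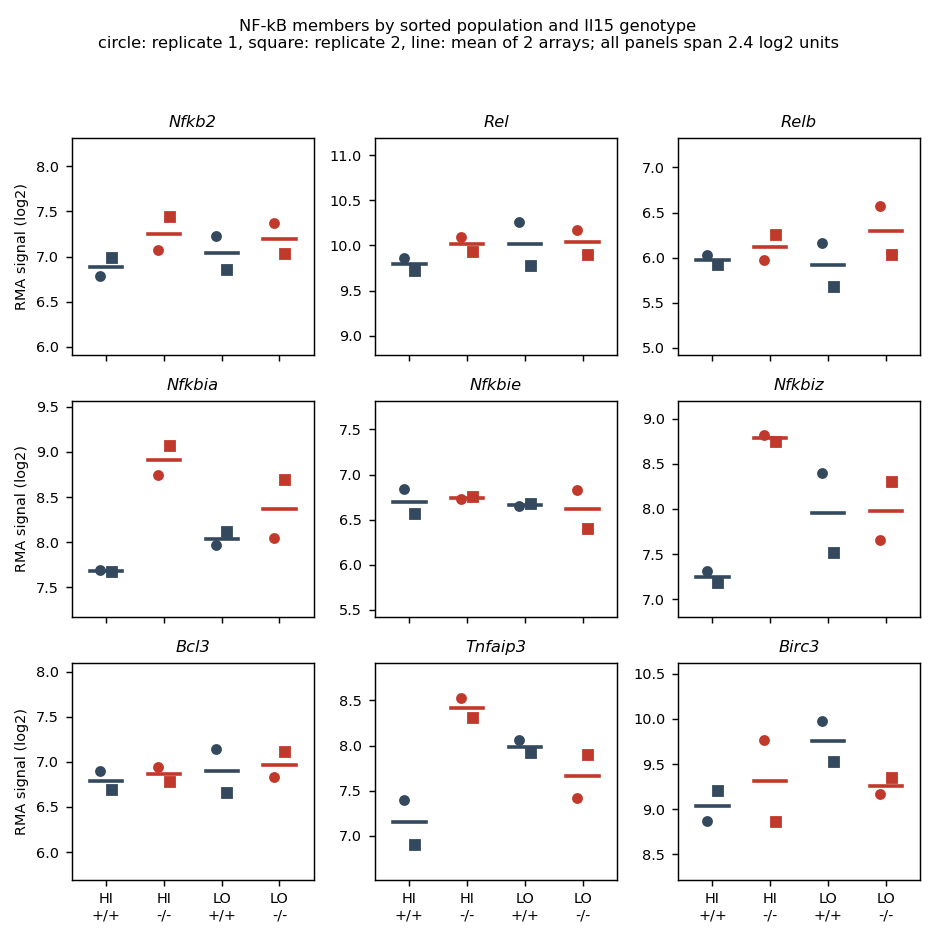
RMA signal (log2, y axis) of the 9 measured members in each array, by population (HI is CD16/32HI, LO is CD16/32LO) and Il15 genotype. Circles are replicate 1, squares replicate 2 and lines the means of 2 arrays, and every panel spans the same height. Nfkbia, Nfkbiz and Tnfaip3 separate most by genotype in CD16/32HI cells, where Nfkb2 and Rel also do not overlap but differ by less (0.37 and 0.22).

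Among the subunits, Nfkb2 encodes p100, which is processed to p52 in the noncanonical pathway. Its signal was 6.79 and 6.99 in the IL-15+/+ and 7.07 and 7.44 in the IL-15-/- CD16/32HI arrays, and 7.23 and 6.86 against 7.37 and 7.03 in the CD16/32LO arrays. Genotypes did not overlap in CD16/32HI cells, by a narrow margin, and overlapped in CD16/32LO cells. Rel, the c-Rel subunit of lymphoid and myeloid cells, read 9.86 and 9.72 against 10.10 and 9.93 in CD16/32HI cells and 10.26 and 9.77 against 10.17 and 9.89 in CD16/32LO cells. Relb, the partner of p52, read 6.03 and 5.92 against 5.97 and 6.25 in CD16/32HI cells and 6.16 and 5.68 against 6.57 and 6.02 in CD16/32LO cells. The genotypes of Rel also did not overlap in CD16/32HI cells, while those of Relb did. None of the 3 subunits reached an unadjusted p under 0.05 between genotypes in limma. The log2 differences in CD16/32HI cells were 0.37 for Nfkb2 (SE 0.258), 0.22 for Rel (SE 0.251) and 0.14 for Relb (SE 0.279).

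Of the cytoplasmic inhibitors, Nfkbia encodes IkB-alpha, which strips NF-kB from DNA and returns it to the cytoplasm. It read 7.69 and 7.67 in the IL-15+/+ CD16/32HI arrays and 8.75 and 9.07 in the IL-15-/- ones. The CD16/32LO values were 7.96 and 8.11 in IL-15+/+ and 8.04 and 8.69 in IL-15-/- arrays. The group means therefore ran from CD16/32HI IL-15+/+ (7.68 ± 0.02, SD, n = 2) over CD16/32LO IL-15+/+ (8.04 ± 0.11) and CD16/32LO IL-15-/- (8.37 ± 0.45) to CD16/32HI IL-15-/- (8.91 ± 0.23), and the middle groups overlapped. Its log2 difference between genotypes in CD16/32HI cells was 1.23 (SE 0.271, 95% interval 0.61 to 1.84, adjusted p = 0.854 from limma, unadjusted p = 0.00152). Nfkbie, which encodes the related IkB-epsilon, stayed between 6.40 and 6.84 over all 8 arrays, with a log2 difference of 0.04 (SE 0.239) in CD16/32HI cells. Its 95% interval was -0.50 to 0.59.

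The nuclear IkB proteins act on chromatin rather than in the cytoplasm. Nfkbiz encodes IkB-zeta, a coactivator that inflammatory genes such as Il6 need after Toll-like receptor or IL-1 signals. It read 7.32 and 7.18 in IL-15+/+ and 8.82 and 8.74 in IL-15-/- CD16/32HI arrays, and 8.40 and 7.51 against 7.66 and 8.30 in the CD16/32LO arrays. The highest means were thus in CD16/32HI IL-15-/- cells (8.78 ± 0.05) and the lowest in CD16/32HI IL-15+/+ cells (7.25 ± 0.10), with the overlapping CD16/32LO groups between them (7.95 ± 0.63 in IL-15+/+ and 7.98 ± 0.45 in IL-15-/-). Its log2 difference of 1.53 in CD16/32HI cells (SE 0.336, 95% interval 0.77 to 2.29, adjusted p = 0.854 from limma, unadjusted p = 0.00147) was the widest of the 9 members. Bcl3, which binds p50 and p52 homodimers, ranged from 6.65 to 7.14 over the 8 arrays and differed by 0.07 (SE 0.254) in CD16/32HI cells.

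Tnfaip3 encodes A20, the ubiquitin-editing enzyme that ends signalling from TNF and IL-1 receptors. It read 7.40 and 6.90 in IL-15+/+ and 8.53 and 8.31 in IL-15-/- CD16/32HI arrays. Those of CD16/32LO cells were 8.06 and 7.91 in IL-15+/+ and 7.42 and 7.89 in IL-15-/- arrays. No array of 1 group overlapped the next in the order CD16/32HI IL-15-/- (8.42 ± 0.15), CD16/32LO IL-15+/+ (7.99 ± 0.10), CD16/32LO IL-15-/- (7.66 ± 0.33) and CD16/32HI IL-15+/+ (7.15 ± 0.35), although the last 3 groups were parted by gaps smaller than their replicate spread. The log2 difference in CD16/32HI cells was 1.27 (SE 0.270, 95% interval 0.65 to 1.88, adjusted p = 0.854 from limma, unadjusted p = 0.00123). Birc3 encodes cIAP2, a ubiquitin ligase that attaches chains to RIPK1 and inhibits noncanonical signalling. It read 8.87 and 9.20 in IL-15+/+ and 9.77 and 8.86 in IL-15-/- CD16/32HI arrays, and 9.98 and 9.53 against 9.17 and 9.34 in the CD16/32LO arrays. Its genotypes overlapped in CD16/32HI cells, and the single high array was that of the mouse with the opposite order of populations.

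Over the family, 0 of the 9 members passed the test between genotypes in CD16/32HI cells at an adjusted p under 0.05, beside 0.0229% of all probe sets. At an unadjusted p under 0.05, 3 of 9 were higher in IL-15-/- cells, beside 3.62% of all probe sets, and none was lower, as 1.29% of probe sets were. The IL-15-/- arrays were higher with no overlap for 5 of 9 members (Nfkb2, Rel, Nfkbia, Nfkbiz and Tnfaip3), beside 24.1% of all probe sets. The median log2 difference of the members was 0.28 and that of all probe sets 0.09. Larger differences than those of Nfkbiz, Tnfaip3 and Nfkbia were held by 0.307%, 0.592% and 0.688% of all probe sets. The methods' test on the 4 CD16/32HI arrays also gave the same 3 members at an unadjusted p under 0.05 (4.8% of all probe sets), 0 after Benjamini-Hochberg adjustment and 0 over the 3-fold limit used in the study.

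The differences of the 3 feedback genes were present in both replicates. Within replicate 1, whose arrays form 1 normalization set, the IL-15-/- array exceeded the IL-15+/+ array by 1.05 for Nfkbia, 1.50 for Nfkbiz and 1.13 for Tnfaip3, and within replicate 2 by 1.40, 1.56 and 1.41. Birc3 differed by 0.90 in replicate 1 and by -0.34 in replicate 2. With the 14-month IL-15-/- mouse left out, the log2 differences were 1.39 for Nfkbia, 1.50 for Nfkbiz and 1.16 for Tnfaip3, with adjusted p of 0.512, 0.738 and 0.811 from limma. The 8 mature neutrophil markers then had a median difference of -0.10 between genotypes, where with all arrays it was 1.49 with 8 of 8 higher. The 9 macrophage markers had a median of -0.84 with all arrays, 7 of 9 being lower in IL-15-/- cells, and of 0.45 with 9 of 9 higher without that mouse. All 7 T cell markers were lower (median -0.34), as were 6 of 7 without the mouse (median -0.38). The 9 markers of NK cells and large granular lymphocytes had a median difference of -0.64 in the same comparison, 7 of 9 being lower in IL-15-/- cells, and -0.71 without that mouse. The part of these cell types in the result was not tested. Were the 2 arrays of the 14-month IL-15-/- mouse exchanged, the differences of the 3 genes in CD16/32HI cells would be 0.88 for Nfkbia, 0.95 for Nfkbiz and 0.72 for Tnfaip3 (adjusted p = 0.635, 0.644 and 0.661 from limma), an alternative chosen after the data were seen. Replicate 1 would then set IL-15-/- values of 8.04, 7.66 and 7.42 against IL-15+/+ values of 7.69, 7.32 and 7.40, in the same order of genes. The larger part of each mean would come from replicate 2, where genotype and normalization set cannot be told apart.

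**Figure D2:**
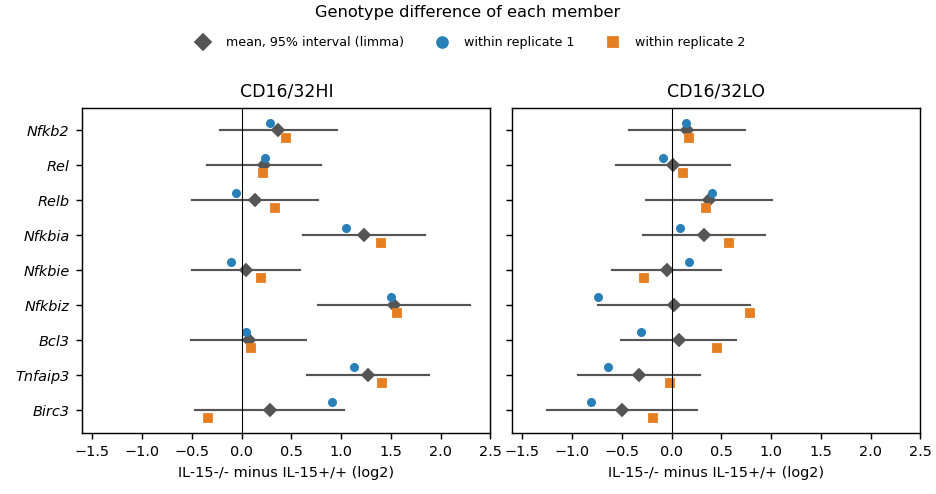
Log2 difference between IL-15-/- and IL-15+/+ arrays (x axis) for each member, in CD16/32HI cells on the left and CD16/32LO cells on the right. Diamonds are the limma means with 95% intervals (2 against 2 arrays), circles and squares the differences within replicates 1 and 2. The intervals of Nfkbia, Nfkbiz and Tnfaip3 lie above 0 before adjustment in CD16/32HI cells alone among the 18 shown.

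With all arrays, no member separated upwards in CD16/32LO cells. None of the 9 passed the test (0.0367% of all probe sets did), and none reached an unadjusted p under 0.05 in limma (1.26% of all probe sets did so as higher and 0.656% as lower) or in the methods' test (3.57%). The median difference of the members was 0.02 and that of all probe sets 0.13. Tnfaip3 (-0.33, SE 0.270) and Birc3 (-0.50, SE 0.331) were lower in IL-15-/- cells with no overlap between genotypes, as were 4.7% of all probe sets, while 24.2% of probe sets and 0 members were higher with no overlap. Nfkbia differed by 0.33 (SE 0.271) and Nfkbiz by 0.02 (SE 0.336), the latter with replicates of opposite sign (-0.74 and 0.79). Beside the lower values of Tnfaip3 and Birc3, all 9 markers of NK cells and large granular lymphocytes were lower in IL-15-/- CD16/32LO cells, with a median difference of -2.23, and 6 of 7 T cell markers were lower, with a median of -1.64. The 8 mature neutrophil markers were all lower (median -1.06) and 8 of 9 macrophage markers higher (median 0.95), and without the 14-month IL-15-/- mouse these medians were 0.029 and 0.17. The part of these cells in the values of the members was not tested. Without the 14-month IL-15-/- mouse the differences were 0.65 for Nfkbia, 0.35 for Nfkbiz, -0.09 for Tnfaip3 and -0.41 for Birc3. With its arrays exchanged, those of Nfkbia, Nfkbiz and Tnfaip3 would be 0.68, 0.61 and 0.22.

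Whether a member differed between the sorted populations was asked within mice. With all 4 mice limma called 0 of the 9 members and 0% of all probe sets, and 0 members had the same sign in 4 of 4 mice, beside 4.14% of probe sets higher and 3.02% lower in CD16/32HI cells. No member reached an unadjusted p under 0.05. The difference of CD16/32HI minus CD16/32LO for Birc3 was -1.11 and -0.32 in the IL-15+/+ mice, 0.60 in the 14-month IL-15-/- mouse and -0.48 in the 12-month one. The mouse with the opposite order of populations was thus the one exception. Without it Birc3 passed the test as lower in CD16/32HI cells (log2 difference -0.64, SE 0.177, adjusted p = 0.0421 from limma). This made 1 of 9 members called lower, beside 7.62% of all probe sets called lower and 6.67% called higher. That mouse was left out for its order of populations, which is what this test compares. The call is therefore a description and no independent support. In those 3 mice neutrophil markers were also lower in CD16/32HI cells (8 of 8 called, median -2.60), macrophage markers higher (8 of 9 called, median 2.20) and 5 of 9 lymphocyte markers of the NK list lower. The part of these cell types in the Birc3 value was not tested.

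For the 3 feedback genes, with labels as deposited, the sign of the difference between populations followed the genotype of the mouse. CD16/32HI minus CD16/32LO was -0.27 and -0.45 in the IL-15+/+ mice and 0.70 and 0.38 in the IL-15-/- mice for Nfkbia. For Nfkbiz it was -1.08 and -0.33 against 1.16 and 0.44, and for Tnfaip3 -0.66 and -1.01 against 1.10 and 0.42. Each of the 3 was below 0 in both IL-15+/+ mice and above 0 in both IL-15-/- mice, a pattern found in 3 of 9 members and 3.75% of all probe sets. The difference between the genotype effects in the populations, tested within mice, was 1.59 for Tnfaip3 (SE 0.338, unadjusted p = 0.00725), 1.51 for Nfkbiz (SE 0.412, unadjusted p = 0.0182) and 0.90 for Nfkbia (SE 0.249, unadjusted p = 0.019), each with an adjusted p of 0.878 from limma. No member and 0% of probe sets passed this test, and at an unadjusted p under 0.05 it gave 3 of 9 members, beside 1.11% of probe sets higher. Without the 14-month IL-15-/- mouse the values were 1.25, 1.15 and 0.74, and the mouse left on the IL-15-/- side had positive differences for all 3. Were the arrays of the left-out mouse exchanged, its own differences would be -0.70 for Nfkbia, -1.16 for Nfkbiz and -1.10 for Tnfaip3, and the pattern would rest on the 12-month IL-15-/- mouse alone. The difference between the genotype effects would then be 0.20 for Nfkbia, 0.35 for Nfkbiz and 0.49 for Tnfaip3 (unadjusted p = 0.579, 0.505 and 0.303 from limma). With either array of the 12-month IL-15-/- mouse left out, 3 members passed (Nfkbiz, Tnfaip3 and Birc3), beside 13% of all probe sets, the IL-15-/- side then resting on the mouse with the opposite order of populations. With all arrays the other 5 members apart from Birc3 lay between -0.24 and 0.21.

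**Figure D3:**
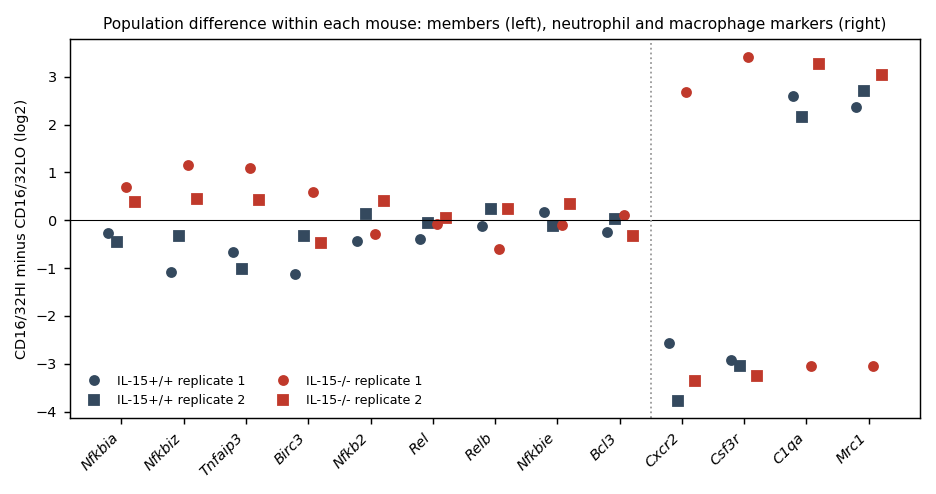
CD16/32HI minus CD16/32LO signal (log2, y axis) within each of the 4 mice for the 9 members and, right of the dotted line, 2 neutrophil genes (Cxcr2, Csf3r) and 2 macrophage genes (C1qa, Mrc1). Nfkbia, Nfkbiz and Tnfaip3 are negative in both IL-15+/+ and positive in both IL-15-/- mice, whereas the markers set the 14-month IL-15-/- mouse apart from the other 3.

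Across the 8 arrays the 3 feedback genes had Pearson's r of 0.80 to 0.90 for their 3 pairs. The 36 pairs of members ranged from -0.30 to 0.90 with a median of 0.34. The 3 genes were singled out by their values in these same arrays, so their higher r partly follows from that choice. The points share mice, normalization sets and genotype groups, and the correlations are descriptions. Against the mean of the other members, each scaled to its own spread, r ran from 0.03 for Nfkbie to 0.81 for Nfkbiz. The probe sets whose 8 values were most like the mean profile of the members were those of Dcaf15 (r = 0.982), Armcx2 (0.979), Btnl10 (0.967), Dbndd1 (0.965) and BC052040 (0.964). The profile itself was lowest in CD16/32HI cells of the 12-month IL-15+/+ mouse (-0.96 in units of SD) and highest in CD16/32LO cells of the 14-month IL-15+/+ mouse (0.65).

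The remaining genes of the pathway gave the setting of these values. In CD16/32HI cells 0 of 67 measured pathway genes passed the test, 17 were higher in IL-15-/- cells at an unadjusted p under 0.05 and 0 lower (3.62% and 1.29% of all probe sets), and the median log2 difference was 0.38, where that of all probe sets was 0.09. The targets of NF-kB (21 genes) had a median of 0.91, and of 0.79 without the 14-month IL-15-/- mouse. The ligands that engage it (9 genes) had a median of 0.71, and of 0.37 without that mouse. The chemokine Ccl3 read 8.23 and 7.08 in IL-15+/+ and 11.62 and 9.49 in IL-15-/- arrays, a difference of 2.90, and the matrix protease Mmp9 and the macrophage growth factor Csf1 differed by 2.81 and 2.26. Among the ligands, Il1a read 7.86 and 7.26 against 10.93 and 9.88 (2.84), followed by Tnf (1.29) and Il1b (1.15). The genotypes did not overlap for any of these 6 genes, which were named for the size of this same difference. The IL-15-/- arrays were higher with no overlap for 39 of the 67 pathway genes, beside 24.1% of all probe sets. Ccl3, Mmp9 and Csf1 differed by 1.84, 1.87 and 1.09 without the 14-month IL-15-/- mouse, and Il1a, Tnf and Il1b by 2.32, 1.28 and 0.68.

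The other subunit and IkB genes were higher in both IL-15-/- arrays as well, by 0.79 for Nfkbib (IkB-beta), 0.57 for Rela (the p65 subunit) and 0.54 for Nfkbid (a nuclear IkB). Without the 14-month IL-15-/- mouse these were 0.86, 0.39 and 0.34. The 18 measured kinases and adaptors had a median of 0.24 (0.40 without that mouse), led by the ubiquitin ligases Traf6 (1.06) and Birc2 (0.78) and the TAK1 partner Tab2 (0.70). The 7 other negative regulators had a median of 0.26 (0.32 without it), with the IRAK inhibitor Irak3 at 1.19 and the deubiquitinases Otud7b and Cyld at 0.70 and 0.56. The receptors (9 genes) had a median of 0.11, near that of all probe sets, from Il1rap, the IL-1 receptor accessory protein, at 1.07 and the TNF receptor Tnfrsf1b at 1.01 to Tnfrsf11a, the RANK receptor, at -0.44. Several of these rested on the mouse with the opposite populations, without which Il1rap differed by 0.11, Otud7b by 0.08, Irak3 by 0.55 and Tnfrsf11a by -0.04. In CD16/32LO cells 0 of the 67 genes passed, 1 was higher at an unadjusted p under 0.05, beside 1.26% of all probe sets, and the median was 0.04. Without the 14-month IL-15-/- mouse this median was 0.26, where that of all probe sets was 0.14, and the targets and ligands had medians of 0.39 and 0.28. With single arrays left out, the CD16/32LO median of the 67 genes ran from -0.15 to 0.26. That of the targets ran from -0.71 to 0.39 and that of the ligands from -0.39 to 0.28. The CD16/32LO medians thus moved in either direction with single arrays.

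Between populations, without the 14-month IL-15-/- mouse, 23 of the 67 pathway genes passed the test as lower and 4 as higher in CD16/32HI cells. Of all probe sets 7.62% passed as lower and 6.67% as higher. By sign alone 46 pathway genes were lower and 21 higher. As for Birc3, that mouse was left out for the order compared here. The 4 called higher were the adhesion molecule Vcam1, the cytokine Il6 and the receptors Tnfrsf11a and Tlr2. Il6 read only 3.49 to 5.42 over all arrays, below every array median, so that its difference lies at low signal. With all 4 mice 0 of the 67 passed and 3 were lower at an unadjusted p under 0.05, beside 0.675% of probe sets. Neutrophil markers differed in the same direction as the 23 lower genes in these 3 mice, and their part in that count was not tested.

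**Figure D4:**
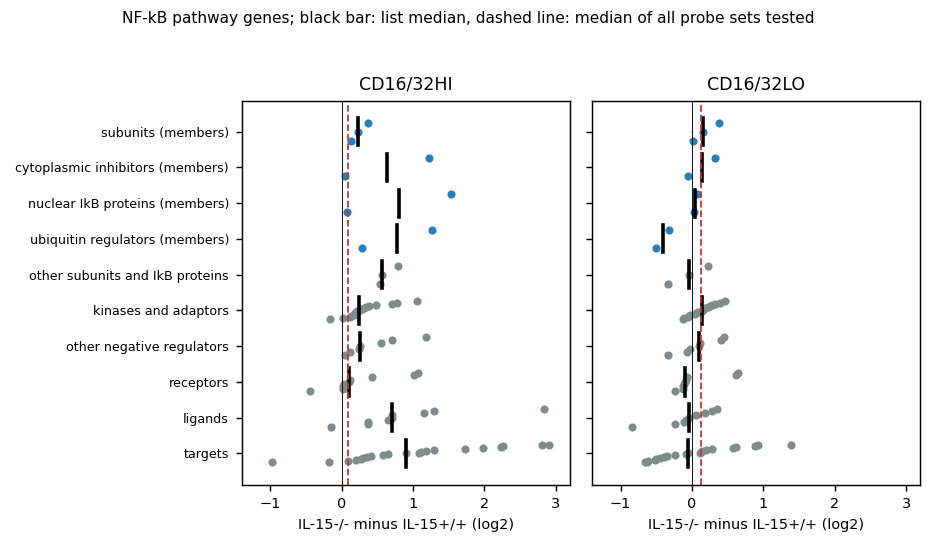
Log2 difference between IL-15-/- and IL-15+/+ arrays (x axis) for every measured gene of the NF-kB lists, in CD16/32HI cells on the left and CD16/32LO cells on the right. Each point is a gene (members in blue, other pathway genes in grey), black bars are list medians and the dashed line is the median of all probe sets. In CD16/32HI cells the medians of targets (0.91) and ligands (0.71) lie right of the dashed line at 0.09 (0.13 in CD16/32LO cells, where the medians of targets and ligands are -0.06 and -0.04).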

How the data were processed

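RNA from the CD16/32HI and the CD16/32LO sort of tail tumors of 4 TAX-LUC mice was hybridised to 8 arrays. The deposited values are log2 signals for 35557 probe sets, which the authors made with RMA in Affymetrix Expression Console (version not given in the sources used here), and the number of arrays limits their precision. RMA fits arrays normalized together, so that differences between normalization sets enter the values. Gene symbols came from the platform annotation of GEO, in which 21789 probe sets had 1 symbol, 1621 had several and 12147 were unnamed. The 21789 were tested, and for genes with several probe sets the one with the highest mean was taken.

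Within each population the genotype contrast was fitted with limma 3.58.1 in R 4.3.3 on 4 group means that shared 1 spread, and populations, and the difference of genotype effects between them, with mouse as a block. A call required a p under 0.05 after Benjamini-Hochberg adjustment over all 21789 probe sets. The study's methods compared genotypes by a 1-way analysis of variance with a 3-fold limit, run here as the methods' test. The 4 mice are separate animals, 2 of each genotype. The fits were tested on simulated data. Named pathway genes are those called in a comparison (0) and the 3 with the largest absolute CD16/32HI difference in each list. Marker lists not given beside a result are in the closing section. Members and lists were chosen with earlier results of these data known. Alternatives tried were the scaling, the features tested, blocks, the spread model and leaving out arrays, and, chosen after seeing the data, an exchange of the 2 arrays of 1 mouse. The mouse left out was also picked from earlier results of these data.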

Additional observations from a re-analysis of the deposited data

Results flagged for a closer look

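Nfkbia, Nfkbiz and Tnfaip3 drew attention because the order of the sorted populations ran one way in both IL-15+/+ mice and the opposite way in both IL-15-/- mice. The mean difference of CD16/32HI minus CD16/32LO in IL-15-/- mice exceeded that in IL-15+/+ mice by 0.90 for Nfkbia, by 1.51 for Nfkbiz and by 1.59 for Tnfaip3 on the log2 scale. The difference was tested as an interaction within mice and did not pass for any of the 3 (adjusted p = 0.878 from limma for each). Without the 14-month IL-15-/- mouse, whose markers ran in the opposite order between the populations, the values were 0.74, 1.15 and 1.25. Whether the arrays of that mouse were exchanged cannot be told from the labels, and with them exchanged the values would be 0.20, 0.35 and 0.49 and only 1 of the 2 IL-15-/- mice would run opposite to the IL-15+/+ mice.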

How the results depend on the processing

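Among CD16/32HI arrays, Nfkbia, Nfkbiz and Tnfaip3 were higher without IL-15 under each of 18 other settings, from 0.96 to 1.60 on the log2 scale. Many of these settings, such as leaving out a CD16/32LO array or changing the spread model, cannot alter the difference itself, only its p. None gave a call by limma (lowest adjusted p = 0.364). An exchange of the 2 arrays of the 14-month IL-15-/- mouse, added after seeing the data, gave 0.72 to 0.95 and turned Tnfaip3 in CD16/32LO cells from -0.33 to 0.22. The methods' test gave 3 members unadjusted. The median member difference there was 0.17 with each array centred on its median, 0.0348 with quantile normalization, 0.32 with a block for the normalization set and 0.27 to 0.45 with single arrays left out. In CD16/32LO cells the lowest was -0.17 (12-month IL-15+/+ array left out) and the highest 0.26 (14-month one left out).

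Members with small differences changed sign. In CD16/32HI cells centring gave -0.066 for Nfkbie and -0.036 for Bcl3, quantile normalization -0.0059 for Rel, -0.024 for Relb, -0.16 for Nfkbie and -0.14 for Bcl3, and the set block -0.13 for Bcl3. In CD16/32LO cells centring gave -0.10 for Rel, -0.089 for Nfkbiz and -0.043 for Bcl3, quantile normalization -0.16, -0.12 and -0.064, and the set block -0.030, -0.37 and -0.13. Between populations quantile normalization gave 0.016 for Tnfaip3. The cause was not tested. With 1 array or the 14-month IL-15-/- mouse left out, the CD16/32HI differences ran from -0.0053 to 0.28 for Relb, -0.10 to 0.18 for Nfkbie, -0.033 to 0.18 for Bcl3 and -0.17 to 0.74 for Birc3. Those in CD16/32LO cells ran from -0.030 to 0.34 for Nfkb2, -0.23 to 0.26 for Rel, -0.26 to 0.16 for Nfkbie, -0.42 to 0.47 for Nfkbiz and -0.17 to 0.31 for Bcl3. Between populations they ran from -0.11 to 0.27 for Nfkbia, -0.32 to 0.43 for Nfkbiz and -0.42 to 0.29 for Tnfaip3.

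Between populations the count of members called ran from 0 to 1 (Birc3, without the 14-month IL-15-/- mouse or either of its arrays), and that of all probe sets from 0 to 3114. For the difference of genotype effects, 3 members (Nfkbiz, Tnfaip3 and Birc3) and 2831 probe sets passed without either array of the 12-month IL-15-/- mouse, which leaves the IL-15-/- side to the mouse with the opposite order of populations, against 0 members with any other array left out. Probe sets called between genotypes ran from 0 to 9 in CD16/32HI cells (5 as reported) and from 2 to 26 in CD16/32LO cells (8 as reported). Over probe sets, the difference of replicate 1 minus replicate 2 in IL-15+/+ correlated with that in IL-15-/- arrays at r = 0.06 in CD16/32HI and 0.13 in CD16/32LO cells, and 2 pairs do not show that the numbers pair the samples. A replicate block called 3 probe sets in CD16/32HI cells and changed no member's call. The set block could not be fitted within mice, since each mouse lies in 1 set, and averaging probe sets changed no member, each having 1.

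With 2 mice a genotype, separate normalization sets in replicate 2, and sex that coincides with genotype, the arrays limit every comparison, and a difference that missed the threshold is not shown to be 0.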

Other observations

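The marker lists not used above had the following median log2 differences between IL-15-/- and IL-15+/+ arrays. They were, in CD16/32HI cells, 0.28 for neutrophil precursors, -0.06 for B cells, 0.14 for dendritic cells, -0.05 for epithelial cells, 0.28 for fibroblasts, -0.18 for endothelial cells and 0.02 for red blood cell precursors. For CD16/32LO cells they were -0.18, -0.64, -1.16, 0.30, 0.15, -0.07 and -0.01 in the same order.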
